A study of Homo sapiens with 12 samples.

Results

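The RNA of 10 genes that write, erase, assemble or read 2 silencing marks was followed in a pair of human leukaemia cell lines. They were the DNA methyltransferases DNMT1, DNMT3A and DNMT3B, the dioxygenases TET1, TET2 and TET3, the Polycomb repressive complex core EZH2, EED and SUZ12, and the methyl-CpG reader MBD2. They were chosen by symbol, and each matched 1 of the 60664 Ensembl genes in the count table. The series concerns the absence of argininosuccinate synthase (ASS1) in Philadelphia chromosome-positive acute lymphoblastic leukaemia. TOM-1 is a B-lineage line with the BCR-ABL1 fusion of that chromosome, and RS4;11 is a B-lineage line with a rearranged KMT2A gene. ADI-PEG20, arginine deiminase joined to polyethylene glycol, degrades extracellular arginine. Each line was grown with and without ADI-PEG20, which gives 4 groups of 3 libraries. Treated cells received 1000 ng/ml for 24 h, and control cells were cultured for the same 24 h. Both lines are labelled wild type, each is a single established line, and all groups grew in RPMI medium with serum and were treated in log phase. Nothing in the labels says that the 3 libraries of a group came from separate cultures, so p-values measure only the spread between these libraries.

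Methylation of cytosine in CpG pairs is copied to the new strand after replication by DNMT1, which UHRF1 brings to half-methylated sites, and is laid down at unmethylated sites by DNMT3A and DNMT3B. TET enzymes oxidise 5-methylcytosine and need 2-oxoglutarate and iron. Polycomb repressive complex 2 (PRC2) methylates lysine 27 of histone H3 through EZH2, which is active only together with EED and SUZ12. MBD2 binds methylated CpG and carries the NuRD deacetylase complex. In lymphoid leukaemia several of these genes are recurrently mutated, and methylation of the ASS1 promoter is a known route to its silencing.

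Library totals ran from 18958144 to 35956959 counts. TOM-1 control replicate 3 stood apart from the rest: 14963 genes had at least 1 read in it, whereas the remaining libraries detected 19857 to 21997. The share of counts in ribosomal protein genes was 19.8% there and 5.91% to 9.91% elsewhere. Against the mean of the other TOM-1 controls, the median log2 ratio of its genes was 0.73 over the 2036 genes of shortest exonic length and -0.87 over the 2034 longest, out of 5 length classes. DNMT1, DNMT3A, TET1, TET2 and TET3 are in the longest class, from 8396 exonic bases. Results are therefore given with and without that library, and its part in each difference between the 2 was not tested further. Levels are given as CPM, counts scaled to library size without regard to gene length. All 10 B-lineage markers reached 1 CPM in TOM-1 and 9 in RS4;11, where MS4A1 did not. The KMT2A-associated genes HOXA9, HOXA10, HOXA7 and MEIS1 were at 0 in each of the 6 TOM-1 libraries and summed to 254 to 276 CPM in RS4;11. Of 8 T-cell markers TRAC alone reached 1 CPM, in every group, with a list sum of 123 to 480 CPM, and CD3G had 0 counts in every library. Of 8 myeloid markers, MPO and CSF1R reached 1 CPM in TOM-1 control, MPO in treated TOM-1, and CSF1R, ITGAM and CD33 in RS4;11, with a list sum of 10.3 to 27.5 CPM. The myeloid markers ELANE and FCGR3A had 0 counts in every library. With ADI-PEG20 in TOM-1, CSF1R fell by 3.20 on the log2 scale (adjusted p = 4.49e-06).

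Levels were compared between genes as RPKM, reads scaled to exonic length in kilobases and to library size. In TOM-1 control culture DNMT1 was highest, at 44.1 ± 9.60 RPKM (SD, n = 3), followed by EZH2 at 34.8 ± 3.63 and SUZ12 at 19.2 ± 6.84. The ranges of DNMT1 and EZH2 overlapped, although DNMT1 was higher within each of the 3 libraries. MBD2 followed at 12.3 ± 1.01 RPKM and overlapped SUZ12 through TOM-1 control replicate 3. DNMT3A at 7.93 ± 1.28, TET3 at 6.72 ± 3.89 and EED at 6.29 ± 1.13 RPKM could not be ordered beyond their spread. DNMT3B at 2.20 ± 0.425 and TET2 at 1.28 ± 0.788 RPKM lay below them, with ranges that overlapped each other and, for DNMT3B, that of TET3, and TET1 was lowest at 0.210 ± 0.0637. In RS4;11 control culture DNMT1 and EZH2 were close, at 47.7 ± 0.987 and 46.3 ± 0.563 RPKM. Their ranges overlapped there too, and DNMT1 was again higher within each of the 3 libraries.

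Promoter windows from RefSeq (GRCh38.p14) run from 250 bases before to 50 after an annotated start, and all 10 genes had at least 1. The first window listed for a gene held more than the all-gene median of 14 CpG pairs for 7 of the 10. That count depends on the window, since TET2 held 13 pairs in its first and 35 in its other. The only DNMT3B window held 3 pairs and began at chr20:32779602, inside the gene, which is annotated from base 32762385. The letters TTTNGCGC or, on the other strand, GCGCNAAA, which resemble the binding letters of E2F factors of the replication programme, occurred in 2 of the 10, DNMT1 and EZH2, and in 1.83% of 27305 genes. TGATGNAA, on either strand, which resembles the composite site of the amino acid response, occurred in 0 of the 10 first windows and in 3.67% of genes. The DNMT1 and EZH2 windows are shown because both carry the first of these motifs, in capitals, while their RNA moved in opposite directions in TOM-1 once replicate 3 was left out. The match began at base 249 in DNMT1 (chr19:10194904-10195203, minus strand) and at base 252 in EZH2 (chr7:148884242-148884541, minus strand). The ASS1 window (chr9:130444457-130444756, plus strand) is shown with its 29 CpG pairs in capitals, because the series concerns the absence of ASS1. No methylation or binding was measured here.
DNMT1: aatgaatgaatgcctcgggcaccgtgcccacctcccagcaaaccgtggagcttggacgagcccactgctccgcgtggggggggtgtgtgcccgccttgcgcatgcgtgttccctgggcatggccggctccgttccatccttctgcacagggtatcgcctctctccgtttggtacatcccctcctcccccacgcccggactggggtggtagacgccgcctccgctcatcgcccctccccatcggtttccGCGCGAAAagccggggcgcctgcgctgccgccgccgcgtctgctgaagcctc
EZH2: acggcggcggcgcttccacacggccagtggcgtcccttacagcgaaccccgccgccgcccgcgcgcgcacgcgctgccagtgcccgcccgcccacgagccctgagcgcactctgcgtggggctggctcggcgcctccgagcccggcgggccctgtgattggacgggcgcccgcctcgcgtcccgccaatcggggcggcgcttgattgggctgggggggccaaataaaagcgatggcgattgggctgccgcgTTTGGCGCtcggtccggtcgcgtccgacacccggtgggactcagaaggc
ASS1: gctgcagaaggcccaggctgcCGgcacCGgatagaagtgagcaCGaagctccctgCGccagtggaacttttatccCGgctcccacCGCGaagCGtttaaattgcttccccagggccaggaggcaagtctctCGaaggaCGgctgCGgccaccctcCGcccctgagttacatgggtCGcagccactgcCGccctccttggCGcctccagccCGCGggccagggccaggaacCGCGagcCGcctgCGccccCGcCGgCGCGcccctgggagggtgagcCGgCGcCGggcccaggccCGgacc

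ASS1 itself had 0 counts in the 3 TOM-1 control libraries and 2935 to 4377 counts in the RS4;11 controls. Against a limit of 3 counts per library, its level was at least 848-fold higher in RS4;11. The TOM-1 libraries with ADI-PEG20 held 14, 5 and 0 counts, a difference that edgeR called (adjusted p = 0.0266) and for which no fold is given, since every control was at 0 and the groups overlapped. In RS4;11 it stood at 140 to 180 CPM in control culture and at 207 to 260 CPM with ADI-PEG20, groups that did not overlap, with a log2 change of 0.57 (SE 0.34, adjusted p = 1), or 0.57 (SE 0.12, adjusted p = 0.0422) without TOM-1 control replicate 3.

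**Figure D1:**
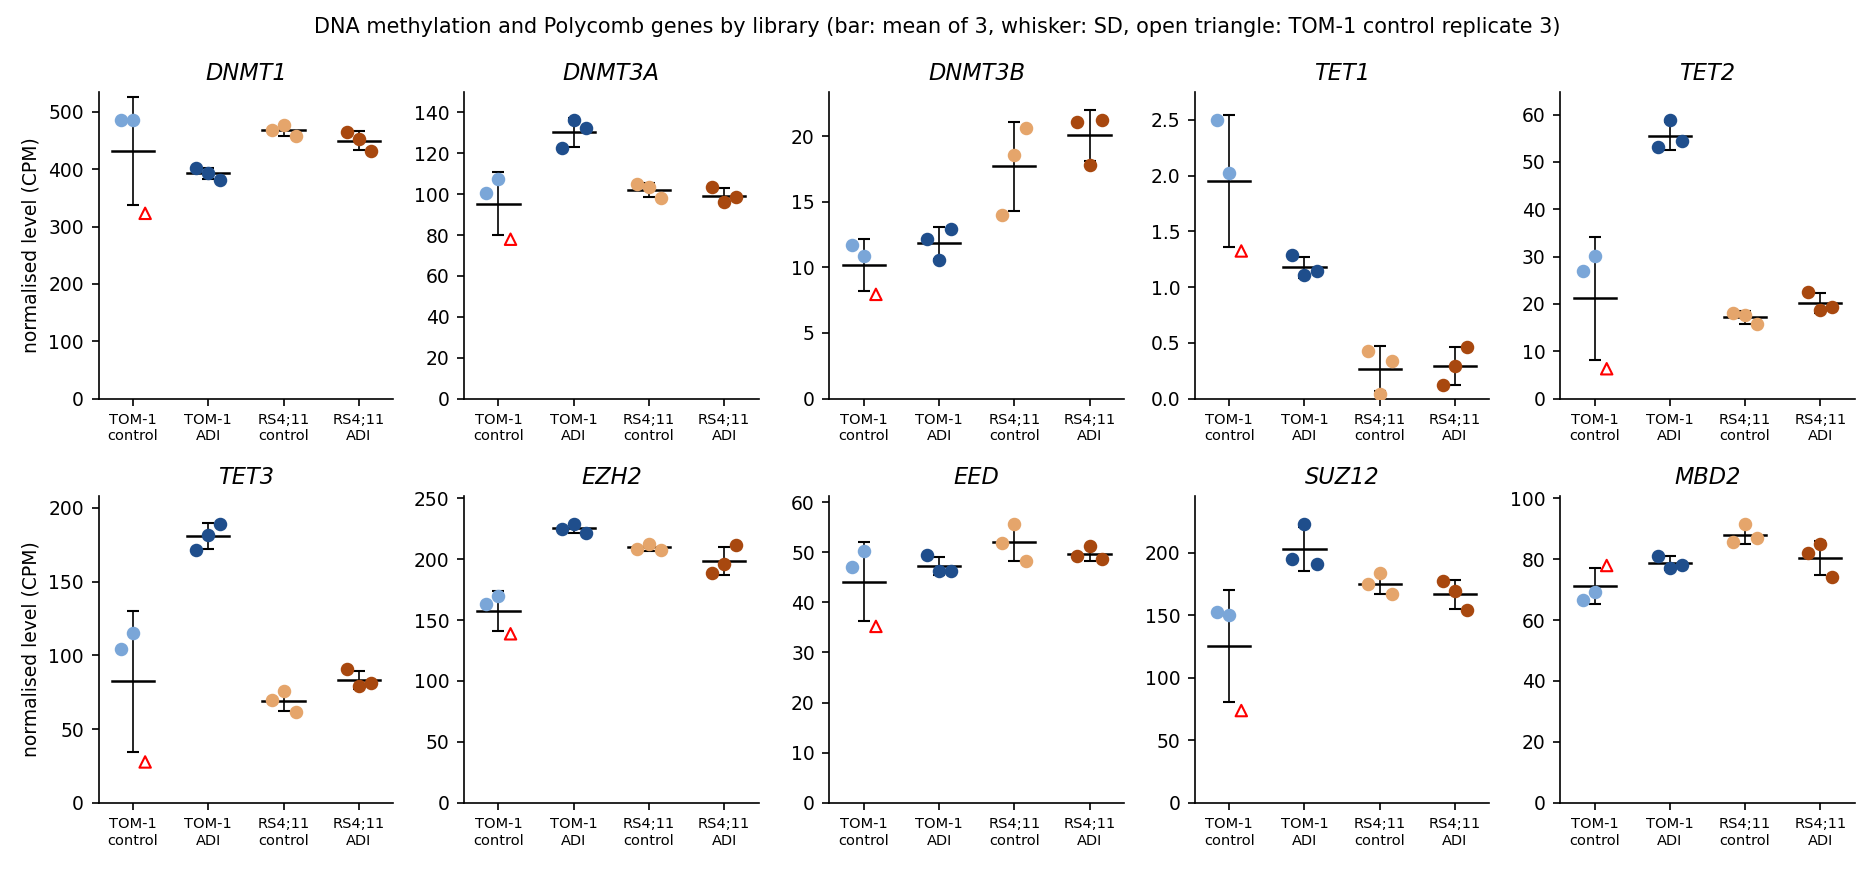
Normalised level in CPM (linear axes from 0) of the 10 genes in each of the 12 libraries, by line and treatment. The bar is the mean of 3 libraries, the whisker the SD, and the open triangle TOM-1 control replicate 3, which was the lowest TOM-1 control for 9 genes, with MBD2 the exception.

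The first comparison asked how the lines differ in control culture. Raw counts were tested in a single model over all libraries, and a gene was called at an adjusted p under 0.05. TOM-1 had more TET1 and less DNMT3B, EZH2 and MBD2 than RS4;11. These 4 of 10 calls stand beside 34.7% of the 17349 genes tested, or 1 higher beside 16.2% and 3 lower beside 18.4%, and the median log2 difference was -0.17 for the 10 genes and 0.01 for all genes tested. The libraries of the lines did not overlap for 5 of the 10, against 42.7% of genes tested. With TOM-1 control replicate 3 left out the count was 7 of 10, 3 higher (25.4% of genes) and 4 lower (27.5%), against 52.8% of 18321 genes.

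Among the methyltransferases, DNMT3B (ENSG00000088305, chr20:32762385-32809356, GRCh38, plus strand) read 11.7, 10.9 and 7.95 CPM in TOM-1 and 14.0, 18.5 and 20.6 CPM in RS4;11. Every TOM-1 library lay below every RS4;11 library. The log2 difference was -0.80 (SE 0.19, adjusted p = 0.00712) and was called in all 12 fits that left out 1 library. DNMT1 (ENSG00000130816, chr19:10133345-10231286, minus strand) read 486, 486 and 323 CPM in TOM-1 against 468, 477 and 458 CPM in RS4;11. The groups overlapped, and the log2 difference was -0.12 (SE 0.14, adjusted p = 0.58), or 0.05 (SE 0.05, adjusted p = 0.45) without replicate 3. DNMT3A (ENSG00000119772, chr2:25227855-25342590, minus strand) also overlapped, at 100, 108 and 78.0 CPM against 105, 103 and 98.2 CPM (log2 difference -0.10, SE 0.13, adjusted p = 0.59).

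TET1 (ENSG00000138336, chr10:68560656-68694482, plus strand) was scarce in both lines. It read 2.50, 2.03 and 1.32 CPM in TOM-1 and 0.429, 0.0412 and 0.335 CPM in RS4;11, where it rested on 1 to 10 counts per library. The lines did not overlap, and the log2 difference was 2.85 (SE 0.73, adjusted p = 0.00922), called in all 12 such fits. TET2 (ENSG00000168769, chr4:105145875-105279816, plus strand) read 27.03, 30.2 and 6.29 CPM in TOM-1 and 18.2, 17.5 and 15.7 CPM in RS4;11. TET3 (ENSG00000187605, chr2:73986404-74108176, plus strand) read 104, 116 and 27.7 CPM against 69.7, 75.8 and 61.8 CPM. For both genes, replicates 1 and 2 lay above every RS4;11 control and replicate 3 lay below them all. With all libraries the log2 differences were 0.31 (SE 0.39) for TET2 and 0.26 (SE 0.36) for TET3, with adjusted p of 0.59 and 0.64. Without replicate 3 they were 0.73 (SE 0.12, adjusted p = 1.5e-05) and 0.66 (SE 0.09, adjusted p = 1.06e-06), so that 1 library decided both calls.

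Of the PRC2 core, EZH2 (ENSG00000106462, chr7:148807383-148884321, minus strand), the methyltransferase, read 163, 170 and 139 CPM in TOM-1 and 209, 212 and 208 CPM in RS4;11. The lines did not overlap, and the log2 difference was -0.41 (SE 0.11, adjusted p = 0.00944), called in all 12 such fits. SUZ12 (ENSG00000178691, chr17:31937018-32001045, plus strand), which holds the complex together, read 153, 150 and 73.7 CPM against 175, 183 and 167 CPM, without overlap. Its log2 difference was -0.48 (SE 0.22, adjusted p = 0.11), and -0.21 (SE 0.08, adjusted p = 0.024) without replicate 3. That call was lost when SUZ12 was summed with its near copy SUZ12P1 (-0.13, adjusted p = 0.14), which was itself higher in TOM-1 by 0.45 (adjusted p = 0.0136), or 0.41 without replicate 3. EED (ENSG00000074266, chr11:86244544-86278813, plus strand), which binds the finished mark, read 47.0, 50.2 and 35.2 CPM against 51.9, 55.6 and 48.3 CPM, and the lines overlapped. MBD2 (ENSG00000134046, chr18:54151601-54224788, minus strand) read 66.7, 69.1 and 77.9 CPM in TOM-1 and 85.7, 91.5 and 87.0 CPM in RS4;11. The log2 difference of MBD2 was -0.31 (SE 0.11, adjusted p = 0.0451), called in 4 of the 12 fits that left out 1 library. The lines did not overlap for MBD2, and without replicate 3 it was -0.38 (adjusted p = 0.000298). In a fit of the 6 control libraries alone, TET1 was the 1 gene of the 10 still called.

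**Figure D2:**
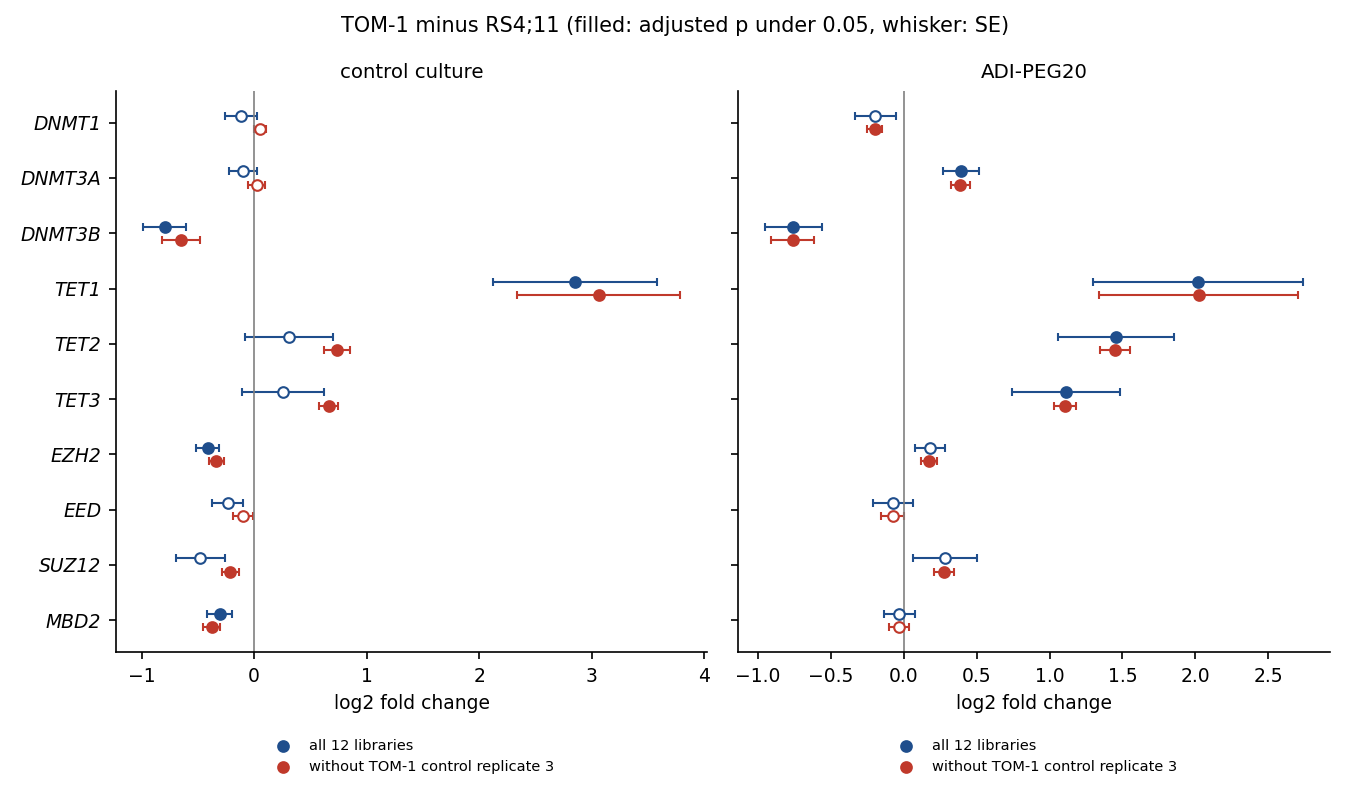
Log2 difference, TOM-1 minus RS4;11, of the 10 genes in control culture and with ADI-PEG20, from the edgeR model. Points are estimates, whiskers standard errors, filled points are called (adjusted p under 0.05), and colours separate the fit of all 12 libraries from that without TOM-1 control replicate 3. TET2 and TET3 are open at 0.31 and 0.26 in control culture with all libraries and filled at 0.73 and 0.66 without that library.

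The second comparison asked what ADI-PEG20 did in TOM-1. DNMT3A, TET2, TET3, EZH2 and SUZ12 were called higher, and none of the 10 was called lower with all libraries in the fit. The 5 of 10 called, all higher, stand beside 31.9% of genes tested that were called in either direction and 15.9% that were called higher. The median log2 change was 0.34 for the 10 genes and 0.05 for all genes tested. Without TOM-1 control replicate 3, 6 rose (MBD2 in addition, against 21.8% of genes) and DNMT1 fell (against 19.8%), 7 of 10 against 41.6%, and the medians were 0.27 and 0.00. The libraries did not overlap for 6 of the 10, against 46.2% of genes tested. These were the 5 called higher and TET1, whose treated libraries lay below the controls.

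DNMT1 read 402, 394 and 382 CPM with ADI-PEG20, between the 486 and 486 CPM of control replicates 1 and 2 and the 323 CPM of replicate 3. Its log2 change was -0.14 (SE 0.14, adjusted p = 0.52) with all libraries. Without replicate 3 it was -0.31 (SE 0.05, adjusted p = 6.81e-05). UHRF1, its partner at half-methylated DNA, read 1281, 1312 and 823 CPM in control culture and 820, 843 and 777 CPM with the drug. UHRF1 fell by 0.48 on the log2 scale (SE 0.16, adjusted p = 0.0339) and by 0.67 without replicate 3 (adjusted p = 8.22e-09). With all libraries this UHRF1 call was lost without TOM-1 control replicate 1 or 2 or any of the 3 treated TOM-1 libraries, with adjusted p up to 0.0941. Of a list of 25 DNA replication genes, 17 fell and 0 rose, against 15.9% of all genes tested in each direction, with a median log2 change of -0.70, and their summed level was 6068 to 7081 CPM in control culture and 3501 to 3606 CPM with ADI-PEG20. The part of these genes in the DNMT1 and UHRF1 values was not tested. In bulk RNA, fewer cells of a kind and less RNA per cell cannot be told apart.

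DNMT3A read 123, 136 and 132 CPM with ADI-PEG20 and 100, 108 and 78.0 CPM in control culture. All treated libraries lay above all controls, and the log2 change was 0.45 (SE 0.13, adjusted p = 0.0173), or 0.32 (SE 0.07) without replicate 3. This call was lost without TOM-1 ADI-PEG20 replicate 2 or 3, and also with the offsets for exonic length described below. DNMT3B read 12.2, 10.5 and 12.9 CPM against 11.7, 10.9 and 7.95 CPM, and its groups overlapped (log2 change 0.22, SE 0.19, adjusted p = 0.44).

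TET2 had the largest called change of the 10, to 53.1, 58.9 and 54.3 CPM from 27.03, 30.2 and 6.29 CPM. All treated libraries lay above all controls, and replicate 3 was far below the other controls. The log2 change was 1.38 (SE 0.39, adjusted p = 0.0189), or 0.95 (SE 0.11, adjusted p = 5.28e-07) without replicate 3. That is a fold of 2.61 with it and 1.94 without it, and the call was lost without TOM-1 ADI-PEG20 replicate 2. TET3 rose to 172, 182 and 189 CPM from 104, 116 and 27.7 CPM. Its groups did not overlap, and the log2 change was 1.13 (SE 0.37, adjusted p = 0.0347), or 0.72 (SE 0.09, adjusted p = 5.59e-07) without replicate 3. TET1 read 1.28, 1.11 and 1.14 CPM, below its controls at 2.50, 2.03 and 1.32 CPM. Its log2 change of -0.73 carried an SE of 0.66 (adjusted p = 0.45).

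EZH2 rose to 225, 229 and 222 CPM from 163, 170 and 139 CPM. The groups did not overlap, and the log2 change was 0.52 (SE 0.11, adjusted p = 0.00329), called in all 12 fits that left out 1 library and 0.43 without replicate 3. SUZ12 rose to 195, 223 and 191 CPM from 153, 150 and 73.7 CPM (log2 change 0.69, SE 0.22, adjusted p = 0.0308), again without overlap. Without replicate 3 it was 0.42 (SE 0.08), and with all libraries the call was lost without each of 8 libraries, that is any except the TOM-1 controls and RS4;11 ADI-PEG20 replicate 1. Reads of SUZ12 can be shared with its near copy SUZ12P1, which read 26.3 to 29.4 CPM in control and 31.1 to 37.0 CPM in treated libraries. With both genes summed the log2 change was 0.62 (adjusted p = 0.0211). EED read 49.4, 46.2 and 46.3 CPM against 47.0, 50.2 and 35.2 CPM, and its groups overlapped (log2 change 0.10, SE 0.14, adjusted p = 0.65). MBD2 read 81.2, 77.0 and 78.0 CPM, and its groups overlapped because replicate 3, at 77.9 CPM, was the highest control. Its log2 change was 0.14 (SE 0.11, adjusted p = 0.35), or 0.21 (SE 0.08, adjusted p = 0.0328) without that library.

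Long genes moved with the drug in TOM-1 as a whole: against control replicates 1 and 2, the median log2 ratio was -0.20 in the shortest length class and 0.16 in the longest. With each library's length trend taken out by offsets, DNMT3A read -0.05 (adjusted p = 0.86) and DNMT1 -0.52 (adjusted p = 0.00203), while TET2 at 0.99, TET3 at 0.81, SUZ12 at 0.52 and EZH2 at 0.45 kept their calls. With both the offsets and replicate 3 left out, DNMT3A read 0.17 (adjusted p = 0.0736). In a fit of the 6 TOM-1 libraries alone none of the 10 was called, with adjusted p of 0.0598 for EZH2 and 0.107 to 0.145 for the other 4, and with all libraries the TET3 call was lost without each library other than the TOM-1 controls.

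**Figure D3:**
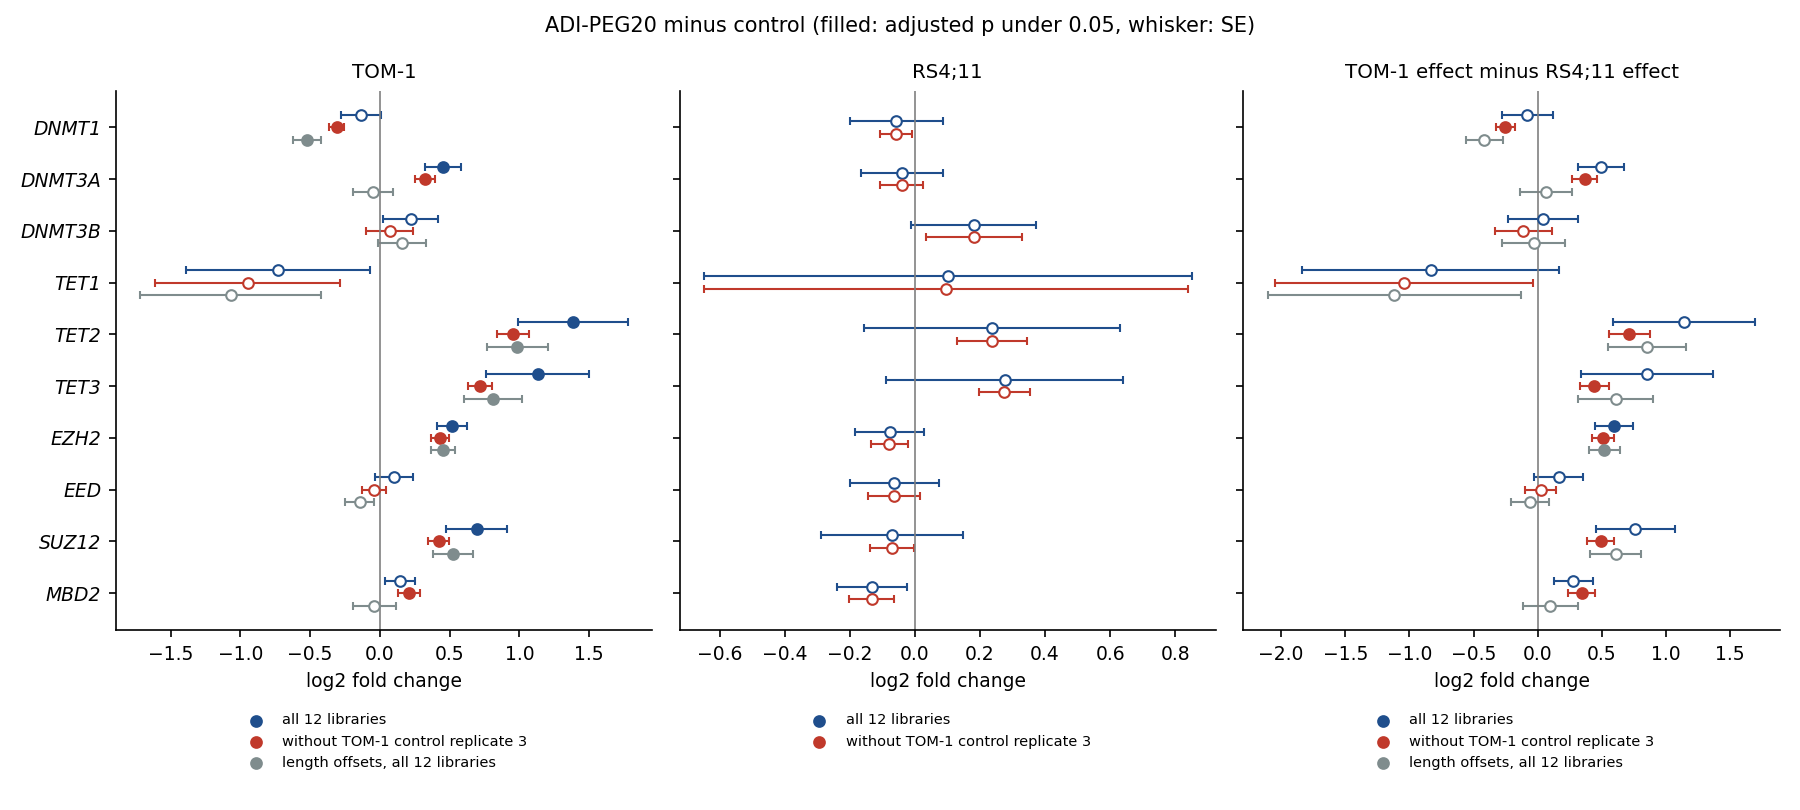
Log2 change with ADI-PEG20 of the 10 genes in TOM-1, in RS4;11, and the TOM-1 change minus the RS4;11 change, from the edgeR models; horizontal scales differ between panels. Points are estimates, whiskers standard errors, filled points are called, and colours mark all libraries, the fit without TOM-1 control replicate 3, and, outside the RS4;11 panel, offsets for exonic length. EZH2 is filled in TOM-1 and in the difference under all 3 fits, between 0.43 and 0.59, DNMT3A is open at -0.05 with length offsets, and no point is filled in RS4;11.

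In RS4;11 the same treatment gave no call among the 10. EdgeR called 0 of the 10 and 0% of genes tested, DESeq2 and voom with quality weights also called 0 of the 10, and 0 of the 10 had an unadjusted p under 0.05 in edgeR. Log2 changes ran from -0.13 for MBD2 (SE 0.11) to 0.28 for TET3 (SE 0.36). TET3 read 69.7, 75.8 and 61.8 CPM in control and 90.6, 79.3 and 81.0 CPM in treated libraries. TET2 read 18.2, 17.5 and 15.7 CPM against 22.6, 18.6 and 19.4 CPM. Treated libraries lay above the controls for both TET genes and below them for MBD2, 3 of 10 without overlap against 16.8% of genes tested. Without TOM-1 control replicate 3, which left the RS4;11 estimates nearly in place and narrowed their errors, TET3 read 0.27 (SE 0.08, adjusted p = 0.13) and TET2 0.24 (SE 0.11, adjusted p = 0.38). That fit called 0 of the 10, against 0.317% of genes (0.202% higher and 0.115% lower), with TET2 and TET3 the 2 under an unadjusted p of 0.05. DNMT1 read 464, 452 and 432 CPM with the drug and EZH2 189, 196 and 211 CPM, both overlapping their controls.

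The difference of the drug effect between the lines was tested as an interaction, which shares the TOM-1 controls with the comparisons above. EZH2 was the 1 of 10 called, against 11.9% of genes tested (5.89% higher and 6.05% lower). Its change was larger in TOM-1 than in RS4;11 by 0.59 on the log2 scale (SE 0.15, adjusted p = 0.025), and in RS4;11 it read -0.08 (SE 0.11). Without TOM-1 control replicate 3 the count was 7 of 10, against 30.4% of genes (15.7% higher and 14.7% lower): DNMT3A, TET2, TET3, EZH2, SUZ12 and MBD2 with a higher and DNMT1 with a lower change in TOM-1. In that fit TET2 read 0.72 (SE 0.16), SUZ12 0.49 (SE 0.10), TET3 0.44 (SE 0.12), DNMT3A 0.37 (SE 0.10), MBD2 0.34 (SE 0.10) and DNMT1 -0.25 (SE 0.07), on the log2 scale, with adjusted p of 0.000787 to 0.0142 for all but EZH2. With all groups in the fit, the EZH2 call was lost without each library other than the TOM-1 controls, with adjusted p up to 0.0941. Its value stayed between 0.51 and 0.61 over the 12 fits that left out 1 library.

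Under ADI-PEG20 the lines differed at 5 of the 10 genes, against 47.2% of genes tested (23.1% higher and 24.0% lower in TOM-1). DNMT3A, TET1, TET2 and TET3 were higher in TOM-1 and DNMT3B lower. TET1 differed by 2.02 on the log2 scale (SE 0.72, adjusted p = 0.0359), from 29 to 30 counts per TOM-1 library and 3 to 9 per RS4;11 library. TET2 differed by 1.46 (SE 0.40, adjusted p = 0.00954) and TET3 by 1.11 (SE 0.37, adjusted p = 0.0259) on the log2 scale. DNMT3B stood at 10.5 to 12.9 CPM in TOM-1 and 17.8 to 21.3 CPM in RS4;11, a log2 difference of -0.76 (SE 0.19, adjusted p = 0.0068). EZH2, which was lower in TOM-1 in control culture, stood at 222 to 229 CPM against 189 to 211 CPM, without overlap. Its log2 difference of 0.18 (SE 0.11, adjusted p = 0.19) did not pass the test with all libraries. The libraries did not overlap for 8 of the 10, against 70.6% of genes tested. DNMT3A lost its call without each library other than TOM-1 control replicate 3. TET1 lost it without 8 libraries, that is any except TOM-1 control replicate 3, RS4;11 control replicates 1 and 2 and RS4;11 ADI-PEG20 replicate 3. TET3 lost it without each of the 6 treated libraries, while TET2 and DNMT3B kept theirs. With length offsets DNMT3A read 0.05 (adjusted p = 0.82). Without TOM-1 control replicate 3, 8 of the 10 were called, against 62.9% of genes (31.4% higher and 31.5% lower), with DNMT1 lower and EZH2 and SUZ12 higher in addition. That library is in neither group compared here and enters only through the filter, the scaling and the shared estimate of the spread. For EZH2 the log2 difference was 0.18 with and without it, while the SE was 0.11 with it and 0.06 without it. A fit of the 6 treated libraries alone called 8 of the 10, and 11149 genes in all.

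Shares within a family compare genes inside a library and need no scaling between libraries. They are a description with no test, since 3 libraries against 3 cannot reach an exact permutation p below 0.1. DNMT1 made up 81.2% ± 0.993 (SD, n = 3) of the DNMT reads per exonic base in TOM-1 control and 74.9% ± 1.18 with ADI-PEG20. DNMT3A took 14.8% ± 0.969 and then 20.3% ± 1.18. The treated and control libraries did not overlap for either share, and control replicate 3, at 80.1% DNMT1, lay close to the other controls. In RS4;11 the DNMT1 share was 79.5% ± 0.753 and 78.5% ± 1.04, with overlap. DNMT3B was 4.07% ± 0.180 of the family in TOM-1 and 6.37% ± 1.22 in RS4;11 control culture.

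The TET3 share was 80.0% to 85.2% of the TET reads per exonic base in every library. TET1 was 3.21% ± 1.70 of the family in TOM-1 control, from 1.90% to 5.13%, and at most 0.797% in each library of the other groups. The 5.13% was that of TOM-1 control replicate 3, from 24 counts, where TET2 and TET3 were at 22.0% and 25.2% of the other controls. In PRC2, EZH2 led in every library, at 54.6% to 65.3%, with the highest share in TOM-1 control replicate 3, where SUZ12 was at 24.0%. The EED share was 10.1% to 10.7% in TOM-1 control libraries and 7.22% to 8.13% with ADI-PEG20, without overlap, and stayed within 8.80% to 9.56% in RS4;11. Between families, DNMT1 exceeded EZH2 per exonic base by 1.07 to 1.37 times in the TOM-1 controls and reached 0.795 to 0.825 times EZH2 in the treated TOM-1 libraries. In RS4;11 the ratio was 1.02 to 1.04 in control and 0.942 to 1.14 in treated libraries. Per exonic base, the order of these genes therefore changed in TOM-1 in all 3 treated libraries and in RS4;11 in 1 of 3. That order rests on the exonic lengths used. Without division by length DNMT1 stayed above EZH2 in every group, at 382 to 402 CPM against 222 to 229 CPM in treated TOM-1.

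**Figure D4:**
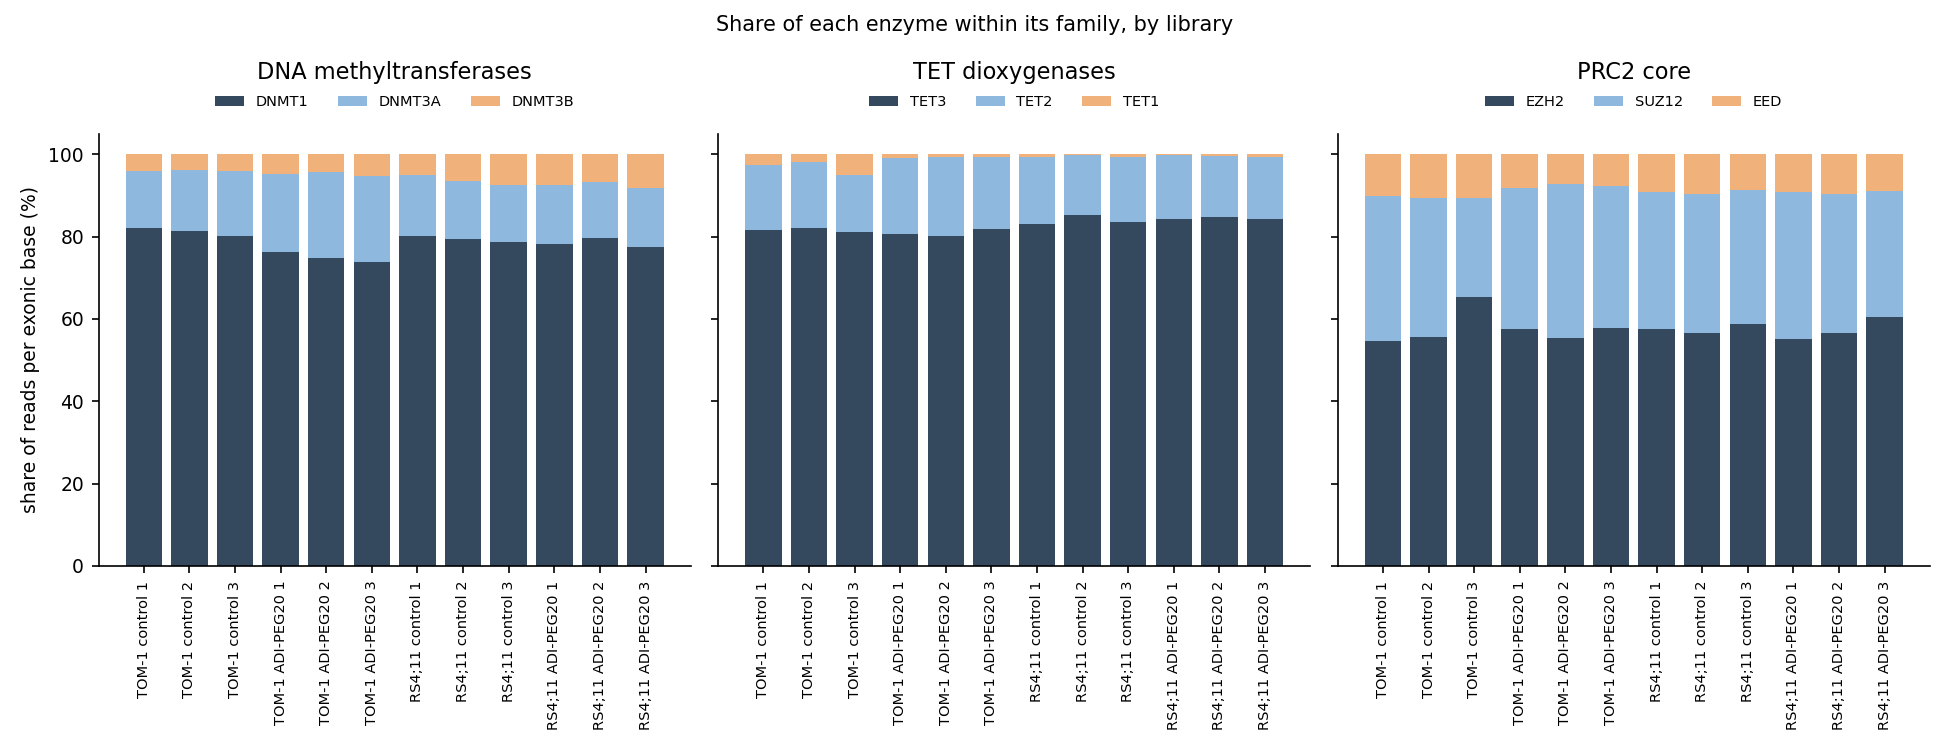
Share of each enzyme in the summed reads per exonic base of its family (percent, stacked bars from 0), for each of the 12 libraries. DNMT1 takes 73.9% to 76.2% in the TOM-1 libraries with ADI-PEG20 and 80.1% to 82.0% in the TOM-1 controls, while TET3 and EZH2 lead their families in every library.

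Genes that work with these enzymes were followed in lists. Between the lines in control culture, 0 of 13 tested partners of DNA methylation were called by edgeR (1 under an unadjusted p of 0.05, and 6 called without TOM-1 control replicate 3), with a list median of -0.12 against 0.01 for all genes. The counts below are read against 16.2% of all genes tested higher and 18.4% lower in TOM-1. Of 10 tested in the PRC2 accessory list 2 were higher and 1 lower, with RBBP7 at 0.86, PHF1 at 0.53 and PHF19 at -0.84 on the log2 scale. Of 20 subunits of Polycomb repressive complex 1, 5 were higher and 1 lower, with PCGF2 at 1.97, PCGF1 at 1.14 and CBX7 at -1.29. With TOM-1 control replicate 3 left out, and 25.4% of all genes higher and 27.5% lower, the PRC2 accessory list had 6 higher and 1 lower and the Polycomb repressive complex 1 list 9 and 2. Of 9 genes listed as opposing Polycomb 0 were higher and 3 lower, among them KDM6A at -1.01 and ASXL1 at -0.77. Leaving out that library gave 5 higher and 3 lower there and moved the list median from 0.06 to 0.25. KDM6A was then at -0.61, and with all groups in the fit its call was lost without each library other than the TOM-1 controls. Of 9 NuRD subunits 2 were lower, HDAC1 at -0.75 and HDAC2 at -0.39. Of 10 methyl donor and 2-oxoglutarate enzymes 3 were higher and 2 lower, among them AHCY at 0.51 and IDH2 at -0.56.

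The same lists were then described by their response to ADI-PEG20 in TOM-1, where 15.9% of all genes tested rose and 15.9% fell, or 21.8% and 19.8% without TOM-1 control replicate 3. Of 13 tested partners of DNA methylation and methyl-CpG readers, 1 rose and 3 fell, or 2 and 4 without that library. MBD5 rose by 0.88 on the log2 scale, MBD3, which builds NuRD without binding methylated DNA, read -1.24 and TRIM28, a co-repressor, -1.17. MBD3 in TOM-1 control replicate 3 was 213% of its mean in the other controls, and its log2 change without that library was -0.78. DNMT3L, the catalytically inactive partner of the de novo enzymes, did not pass the filter on low counts.

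Of 10 tested genes in the PRC2 accessory list, which also holds EZH1, 3 rose and 2 fell. These counts were 5 and 3 without TOM-1 control replicate 3. PHF1 rose by 0.92 and LCOR by 0.85, and the subunits EPOP and RBBP7 read -1.24 and -0.66 on the log2 scale. EZH1, the paralog of EZH2, read 36.6 to 40.3 CPM in control and 40.1 to 49.4 CPM in treated TOM-1 libraries, which overlapped (log2 change 0.18, SE 0.17, adjusted p = 0.48). Of 20 subunits of Polycomb repressive complex 1, 8 rose and 3 fell, or 10 and 4 without that library. The chromodomain subunit CBX2 read -0.88 on the log2 scale (SE 0.12, adjusted p = 0.000246), and it differed between the lines in the interaction. RYBP, a subunit of its variant forms, rose by 1.39.

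Among genes listed as opposing Polycomb, the H3 lysine 27 demethylase KDM6B read 31.9, 34.6 and 27.3 CPM in control and 223, 218 and 214 CPM in treated TOM-1 libraries, without overlap. Its log2 change was 2.80 (SE 0.17, adjusted p = 1.43e-06), or 2.72 without replicate 3, and in RS4;11 it was 0.10 (SE 0.16). KDM6A, the related demethylase, rose by 1.47 (SE 0.36, adjusted p = 0.0082), and its level in TOM-1 control replicate 3 was 27.1% of the other controls. In all, 3 of 9 in this list rose and 1, BAP1, fell, and 6 rose and 1 fell without TOM-1 control replicate 3. Of 9 NuRD subunits 5 fell, CHD3 and HDAC1 among them at -0.62 and -0.51, and GATAD2B rose by 0.91.

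The list of methyl donor and 2-oxoglutarate enzymes had 5 of 10 genes lower and 2 higher. S-adenosylmethionine is the methyl donor of DNMT and EZH2 enzymes, and AHCY removes the S-adenosylhomocysteine they leave. AHCY read 300, 319 and 418 CPM in control and 112, 96.3 and 101 CPM in treated TOM-1 libraries, without overlap. The log2 change of AHCY was -1.74 (SE 0.13, adjusted p = 6.48e-06), and it was -1.58 without replicate 3. MAT2A, which makes S-adenosylmethionine, read 411, 427 and 155 CPM in control and 141, 145 and 153 CPM with the drug. Its log2 change was -1.18 (SE 0.28, adjusted p = 0.00762), or -1.52 without replicate 3, whose level was 37.0% of the other controls. IDH1, a source of 2-oxoglutarate, rose by 0.60 on the log2 scale. IDH2 of the same list went the other way in the edgeR interaction, with a log2 change in TOM-1 minus that in RS4;11 of -1.02 (adjusted p = 0.0126). In RS4;11 edgeR called 0 genes of these lists, with 1 gene, of the PRC2 accessory list, under an unadjusted p of 0.05, and without TOM-1 control replicate 3 it called 1 gene of these lists, EPOP, at -0.52 on the log2 scale (adjusted p = 0.0159).

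**Figure D5:**
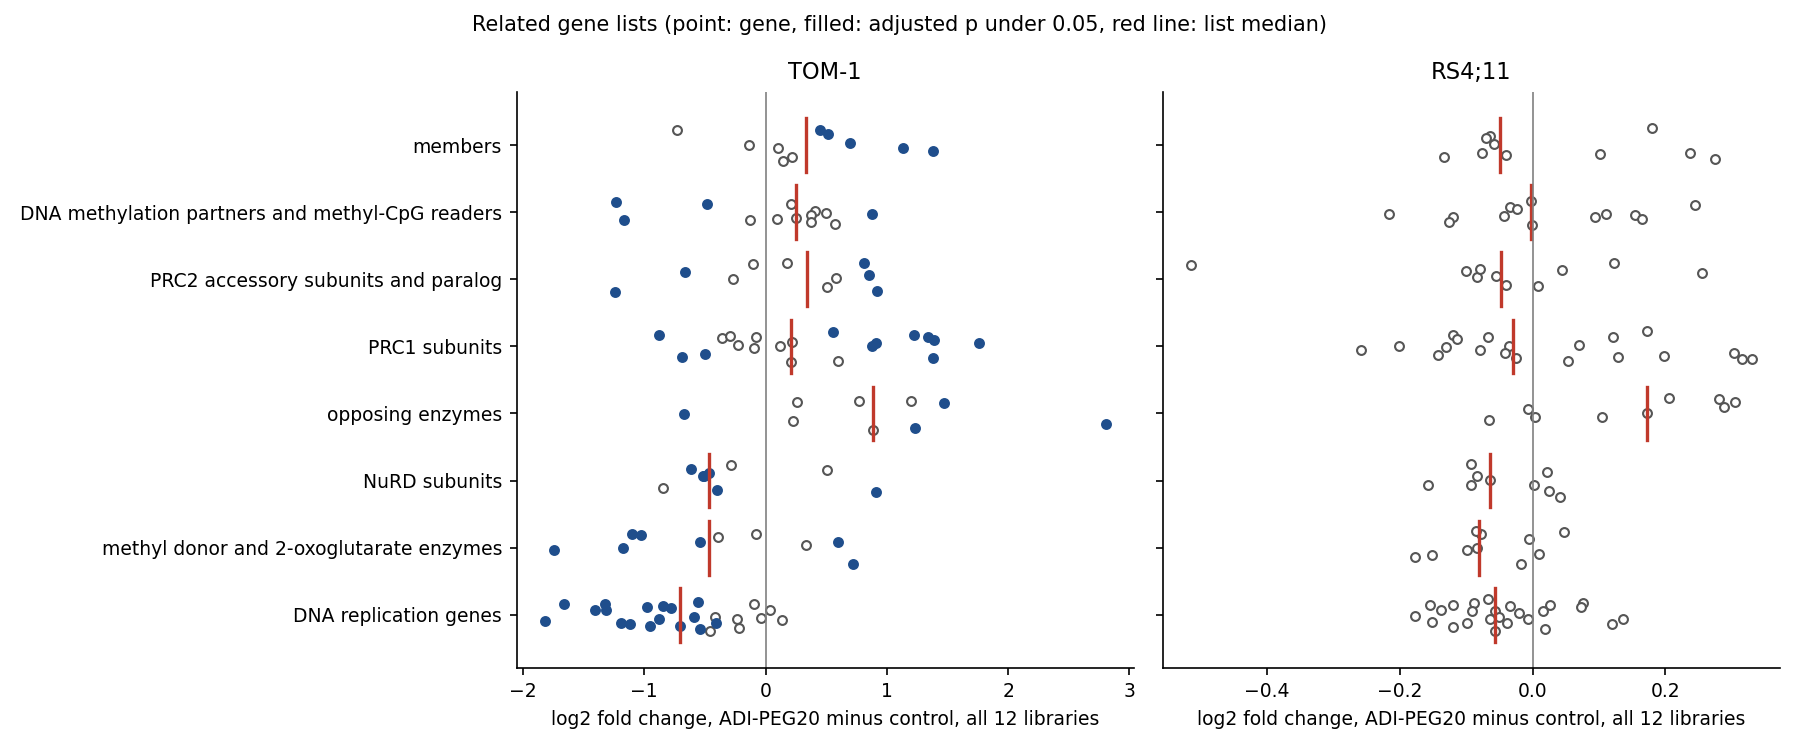
Log2 change with ADI-PEG20 of each tested gene in the 10 enzymes (members) and 7 related lists, in TOM-1 and RS4;11, with all 12 libraries; horizontal scales differ between panels. Points are genes, filled points are called (adjusted p under 0.05), and red lines are list medians, which in TOM-1 run from -0.70 for DNA replication genes to 0.88 for the list labelled opposing enzymes. The TOM-1 medians include control replicate 3, whose longest genes had a median log2 ratio of -0.87 against the other TOM-1 controls. No point is filled in RS4;11.

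The gene with the most similar pattern was sought for each enzyme, as the smallest root mean square distance between centred log2 group means over the 4 groups, among 10533 genes with a mean of at least 5 CPM. EZH2 was nearest to CHMP2B (0.0146), SUZ12 to HAUS6 (0.0149) and TET2 to SEL1L (0.0224). These pairs rest on 4 points each and share libraries. Without TOM-1 control replicate 3 the nearest gene was another one for all 10, such as MAP2K3 for EZH2.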

How the data were processed

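Counts were deposited by the authors as 1 table of whole-number read counts per Ensembl gene, not normalized. Per the labels' protocols, libraries were made from total RNA by poly(A) capture. STAR, SAMtools and featureCounts and the build hg38 are named in the submitters' processing notes, with no versions. The annotation release and the use of strand are not given in the sources used here. Positions, exonic lengths and overlaps came from GENCODE 29 on GRCh38, which held 58396 of the identifiers. None of the 10 overlapped an opposite-strand gene in exons, and same-strand genes covered 0.847% of the exonic bases of DNMT1 and 0.941% of those of EED.

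The model was fitted with edgeR 4.0.16 in R 4.3.3: filterByExpr (17349 genes kept), TMM scaling, 1 group-means model over 12 libraries, quasi-likelihood F tests and Benjamini-Hochberg adjustment over all tested genes, at 0.05. SE is the log2 fold change divided by the square root of F. CPM uses TMM-scaled totals, and RPKM divides it by union exonic length. A count of 0 allows up to 3 counts, and these limits cover counting error only. Alternatives were DESeq2 1.42.0, limma 3.58.1 (voom with quality weights), other scalings and filters, a replicate block, single contrasts, length offsets (lowess, span 0.3) and each library left out. Chosen after seeing the data were SUZ12 summed with its copy, and length offsets with TOM-1 control replicate 3 left out. The test was tested on simulated data over 15646 genes: of 200 genes changed in treated TOM-1, 124 were recovered for the drug in TOM-1 (43 of the 2-fold and 81 of the 4-fold changes, 6 false calls) and 64 for the difference between lines (9 and 55, 0 false calls). The simulated counts were drawn independently, without the length trend of TOM-1 control replicate 3. Leaving that library out lowered the 124 recovered to 99, whereas it raised the real calls for the drug in TOM-1 from 5527 to 7616. The simulation therefore cannot give the recovery or the false calls in the real data.

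The 10 genes and the lists were chosen with earlier results of these data known. Named beside the 10 are, per list and contrast, up to 2 called genes in each direction with the largest change, at least 1 CPM and no overlap between groups; UHRF1, EZH1, ASS1, HOXA9 and MEIS1; and the nearest gene in pattern. Some genes that this rule names are not reported here. Figures were drawn with matplotlib 3.10.9.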

Additional observations from a re-analysis of the deposited data

Results flagged for a closer look

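The change with ADI-PEG20 differed between the lines, by the interaction test in edgeR with all 12 libraries, for EZH2 and, among the list genes reported here, for 17. Each value is the log2 change in TOM-1 minus that in RS4;11. EZH2 stood at 0.59. Among Polycomb genes the difference was 1.00 for PHF1, -0.58 for RBBP7, 1.42 for YAF2, -0.81 for CBX2 and -0.48 for CBX6. Among enzymes that oppose Polycomb it was 2.70 for KDM6B and -0.61 for BAP1. Among NuRD subunits it was 0.87 for GATAD2B, -0.64 for CHD3 and -0.54 for HDAC1, and for the co-repressor TRIM28 it was -1.04. Enzymes of methyl donor and 2-oxoglutarate supply gave 0.78 for IDH1, -1.59 for AHCY and -1.02 for IDH2. The replication genes GINS2 and MCM5 gave -1.77 and -1.54, and the lineage marker CSF1R gave -2.98.

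The calls of EZH2, TRIM28, BAP1, GATAD2B and HDAC1 were lost without each library other than the TOM-1 controls, with adjusted p up to 0.119. CBX6 lost its call without each library other than TOM-1 control replicate 3, and RBBP7 without TOM-1 ADI-PEG20 replicate 3. The other 11 of these kept theirs in all 12 fits that left out 1 library.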

How the results depend on the processing

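Of the 10 genes, the number called was 4 for the lines in control culture, 5 for the lines with ADI-PEG20, 5 for the drug in TOM-1, 0 for the drug in RS4;11 and 1 for the difference of the drug effects. Without a count filter these were 2, 3, 4, 0 and 0. Voom with quality weights gave 7, 8, 8, 0 and 7. Fits of only the groups compared gave 1, 8, 0 and 0, and have no value for the difference, which needs all 4 groups. Length offsets with TOM-1 control replicate 3 left out gave 8, 7, 5, 0 and 7. With 1 library left out at a time the counts ran from 3 to 7, 2 to 8, 1 to 7, 0 to 0 and 0 to 7, and the highest values came without TOM-1 control replicate 3. DNMT1, TET3 or EZH2 led its family in 36 of 36 library and family pairs, also when counts were not divided by length.

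Over all genes tested, voom gave 10037, 8434 and 5868 calls for the lines in control culture, the drug in TOM-1 and the difference, against 6014, 5527 and 2072. Fits of the groups compared gave 3548 and 2639 for the first and second of these, and DESeq2 gave 3228 for the difference. For the lines with ADI-PEG20 the calls over all genes were 8182 in the main fit, 12096 with voom and 11149 in the fit of the groups compared. In the order of the member counts above, the fit without a count filter gave 5875, 8086, 5422, 0 and 2253. The number of genes tested differs between fits. Length offsets with replicate 3 left out gave 9388, 11259, 7475, 17 and 5389 in the same order. With 1 library left out, the calls over all genes ran from 4731 to 9681, 6838 to 11531, 3960 to 7616, 0 to 58 and 1169 to 5567. For the drug in RS4;11, edgeR gave 0, with 325 genes under an unadjusted p of 0.05, DESeq2 0, voom 17, the RS4;11 libraries alone 3, and 58 without TOM-1 control replicate 3.

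The replicate numbers gave correlations of -0.0623 to 0.145 between same-numbered libraries. Between RS4;11 control and ADI-PEG20, same-numbered pairs read 0.0568, 0.0307 and 0.145, and other pairs -0.0955 to 0.0553. Whether same-numbered libraries share a culture or batch was not tested. With the replicate number as a block, the counts were 3, 4, 5, 0 and 1, with MBD2 (lines, control) and TET1 (lines, ADI-PEG20) no longer called, at adjusted p = 0.0645 and 0.0617. Over all genes that fit called 5647, 7964, 5324, 0 and 1939.

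Some values that were not called, and DNMT3A in TOM-1, changed sign, and the cause was not tested. For the drug in TOM-1, length offsets gave DNMT3A -0.0462, EED -0.14, MBD2 -0.0401 and EZH1 -0.108. EED also read -0.0288 with voom and -0.11 with length offsets and replicate 3 left out. For the lines in control culture, voom gave DNMT1 0.0401, length offsets EZH1 0.0669, and length offsets without replicate 3 UHRF1 0.0367. For the difference of the drug effects, length offsets gave EED -0.0594 and EZH1 -0.0435, and EED read -0.0248 without replicate 3 as well. DNMT3B there read -0.0038 with DESeq2 size factors, -0.0423 with upper-quartile scaling, -0.0064 in DESeq2, -0.19 with voom, -0.0307 with length offsets and -0.10 without replicate 3 as well.

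With 1 library left out, log2 values of 11 results crossed 0. For the lines in control culture the ranges were DNMT1 -0.25 to 0.0522, DNMT3A -0.23 to 0.0215, TET2 -0.0527 to 0.73, TET3 -0.0927 to 0.66 and UHRF1 -0.31 to 0.0258, with the highest in each without TOM-1 control replicate 3. For the lines with ADI-PEG20 EZH1 ran from -0.0279 to 0.29, and for the drug in TOM-1 EED from -0.0415 to 0.16. For the drug in RS4;11 the ranges were TET1 -0.41 to 0.64, UHRF1 -0.10 to 0.0127 and EZH1 -0.26 to 0.0725. For the difference DNMT3B ran from -0.12 to 0.15. TET1, at 1 to 10 counts per RS4;11 library, is limited by depth.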
